A study of Gallus gallus with 6 samples.

Results

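A set of 8 genes of the JAK-STAT signalling pathway (STAT3, STAT4, STAT5B, JAK1, JAK2, SOCS1, SOCS2 and SOCS3) are described here in the developing chick lens. They were found by their symbols, and each matched 1 entry, so they make up 8 of the 16561 entries of the expression table. The set was selected on these same fiber and epithelial FPKM values, so the difference between the cell types is given for them as a description and without a test. Expression was measured by RNA-seq in lens fiber cells (peripheral and central fibers together) and in lens epithelial cells (central and equatorial epithelium together) microdissected from normal White Leghorn chick embryos at embryonic day 13, with no treatment in either group. Each cell type has 3 replicate libraries, and each replicate pooled the tissue of 25 lenses, so the spread between libraries is a spread between pools. Values are FPKM, in which fragment numbers are divided by transcript length and by the size of the library.

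In this pathway a cytokine joins receptor chains that carry Janus kinases (JAKs) on their inner side, the kinases phosphorylate the receptor and the bound STAT proteins, and the STATs then enter the nucleus and act as transcription factors. Suppressors of cytokine signalling (SOCS proteins and CISH) are commonly switched on by STATs and act back on the kinases and receptors. Cytokines that signal through the shared receptor chain gp130, such as ciliary neurotrophic factor (CNTF) and leukaemia inhibitory factor, are known for their actions on neural and ocular tissues.

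STAT proteins bind DNA at short palindromes of the form TTCNNNGAA. Predicted sites of this kind were listed by the study at genes of the lens, inside regions where CG methylation differed between the cell types. The methylation data were not analysed here, and the sites are shown for the form that a STAT site takes. Capitals mark TTCNNNGAA, and coordinates are on the galGal6 build.
TGFB2, STAT3 motif, chr3:19495802-19495812, plus strand: cTTCTGGGAAa
CREB3L2, STAT3 motif, chr1:57365287-57365297, plus strand: cTTCTTGGAAg
CCDC3, Stat4 motif, chr1:7202040-7202053, minus strand: tTTCCAAGAAacag
In the portion of that list held here, matches were counted separately on each strand. TTCNNNGAA was found on either strand in 14 of 19 matches of the STAT3 motif and in 24 of 31 of the Stat4 motif. These 3 genes were picked as examples after their sites were seen. All 3 were lower in fiber cells by limma with adjustment over all tested entries, TGFB2 (a transforming growth factor) with a log2 fold change of −3.02 (adjusted p = 3.4e-06), CREB3L2 (a transcription factor of the secretory pathway) with −2.43 and CCDC3 with −5.23. They come from a list that the study restricted to epithelial cell genes, so their direction is not independent evidence.

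Of the 8 genes, STAT4 alone had a predicted site in the complete companion list for fiber cell genes. That site belongs to MAFG, a small MAF protein that pairs with other bZIP factors at palindromic elements beginning TGCTG. Capitals mark TGCTG and CAGC.
STAT4, MAFG motif, chr7:7974995-7975015, plus strand: tttaTGCTGcccCAGCggctt
Among the 67 MAFG matches of that list, counted separately on each strand, 54 (80.6%) held TGCTG on either strand. A match of letters is a description and not a bound site. The study restricted that list to regions less methylated in fiber cells, at genes higher in fiber cells. Genes lower in fiber cells therefore could not appear in it. The MAFG entry itself had 5.30, 8.03 and 4.61 FPKM in fiber libraries, against 4.86, 5.91 and 4.93 FPKM in epithelial libraries. As deposited it was not called (limma, adjusted p = 0.494). With each library centred on its own median it was called higher in fiber cells, at a log2 fold change of 0.76 (adjusted p = 0.0192). Its values are identical to those of PCYT2 and SIRT7, so it cannot be told apart from them.

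The scale of the values bears on every fold change below. On log2(FPKM + 0.1), the median of the 10818 tested entries (those averaging 0.5 FPKM or more) was −0.62, fiber over epithelial, and after each library was centred on its own median it was −0.01. Fold changes are therefore given both as deposited and relative to the library median. As deposited, limma called 13.1% of tested entries higher and 57.7% lower in fiber cells (thresholds: 0.05 for the adjusted p, 0.4 for the size of the log2 fold change). With centred libraries, 30.2% were called higher and 29.3% lower. Among the 7 of the 8 genes that passed the filter, 3 met the thresholds upward and 3 downward as deposited, and 3 upward and 2 downward after centring. These counts follow from the way the genes were selected and are read no further. The depth of the libraries is unknown, as FPKM keep no read numbers.

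Both selected Janus kinases had lower FPKM in fiber cells. JAK1, which serves gp130, interferon and interleukin receptors, had 5.33, 5.23 and 5.54 FPKM in fiber libraries and 11.7, 10.5 and 9.82 FPKM in epithelial libraries. The 2 groups did not overlap, and the fiber mean was 0.502 of the epithelial mean (5.37 ± 0.156 against 10.7 ± 0.965 FPKM, SD, n = 3 each). Its log2 fold change was −0.98, with the 9 fiber and epithelial pairs between −1.15 and −0.82, and −0.37 relative to the library median, the median gene itself lying at −0.62. After centring JAK1 no longer met the thresholds.

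JAK2, the kinase of growth hormone, erythropoietin and interferon gamma receptors, had 0.838, 0.573 and 0.792 FPKM in fiber libraries and 2.41, 2.78 and 2.48 FPKM in epithelial libraries. Again no fiber library reached the lowest epithelial library. The fiber mean was 0.287 of the epithelial mean (0.734 ± 0.142 against 2.56 ± 0.195 FPKM), and the log2 fold change was −1.68 as deposited and −1.07 relative to the library median. It was −1.04 with a pseudocount of 1 and −0.77 with quantile normalization. The third kinase with an entry, TYK2, a partner of JAK1 at interferon receptors, had 2.62, 3.65 and 2.29 FPKM in fiber libraries and 3.51, 3.45 and 3.50 FPKM in epithelial libraries. Its log2 fold change of −0.31 ± 0.17 (SE) was not called (limma, adjusted p = 0.133), although without fiber library 2 it was called at −0.49. Its direction depends on the scaling, as it was 0.30 with centred libraries (not called) and 0.36 with quantile normalization. The TYK2 values are identical in all libraries to those of CDC37, which encodes a kinase cochaperone, so the pair cannot be told apart. JAK3 was not analysed here.

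The 3 selected STAT genes all had higher levels in fiber cells. STAT3, the main STAT of gp130 receptors, had 17.5, 19.4 and 18.2 FPKM in fiber libraries and 12.4, 7.26 and 11.9 FPKM in epithelial libraries. The fiber libraries lay close together and above all epithelial libraries, of which the second stood apart downward. The fiber mean was 1.74 times the epithelial mean (18.4 ± 0.963 against 10.5 ± 2.85 FPKM), and the log2 fold change was 0.83 as deposited and 1.44 relative to the library median. Without epithelial library 2 it was 0.59, the lowest value when any library was left out.

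STAT4, known in mammals from interleukin 12 signalling in lymphocytes, differed most among the STATs. It had 5.76, 6.73 and 6.73 FPKM in fiber libraries and 0.589, 0.966 and 0.825 FPKM in epithelial libraries. The fiber mean was 8.07 times the epithelial mean (6.40 ± 0.559 against 0.793 ± 0.19 FPKM), the log2 fold change was 2.88, and the 9 pairs lay between 2.46 and 3.31. Relative to the library median the log2 fold change was 3.49, and with a pseudocount of 1 it was 2.05.

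STAT5B acts downstream of growth hormone, prolactin and interleukin 2 receptors, and its entry also carries the symbol STAT5A. It had 13.4, 17.3 and 15.6 FPKM in fiber libraries and 6.27, 5.67 and 6.13 FPKM in epithelial libraries. The libraries did not overlap, with a fiber mean 2.56 times the epithelial mean (15.4 ± 1.92 against 6.02 ± 0.314 FPKM) and a log2 fold change of 1.34 as deposited and 1.94 after centring. All 6 values are identical to those of GHDC, the gene next to it, so the STAT5B level cannot be told apart from that of GHDC. Such sharing was found for 1685 of the tested entries (15.6%). Most of them are not members of this pathway, and none of the other 7 genes shares its values with another entry.

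**Figure D1:**
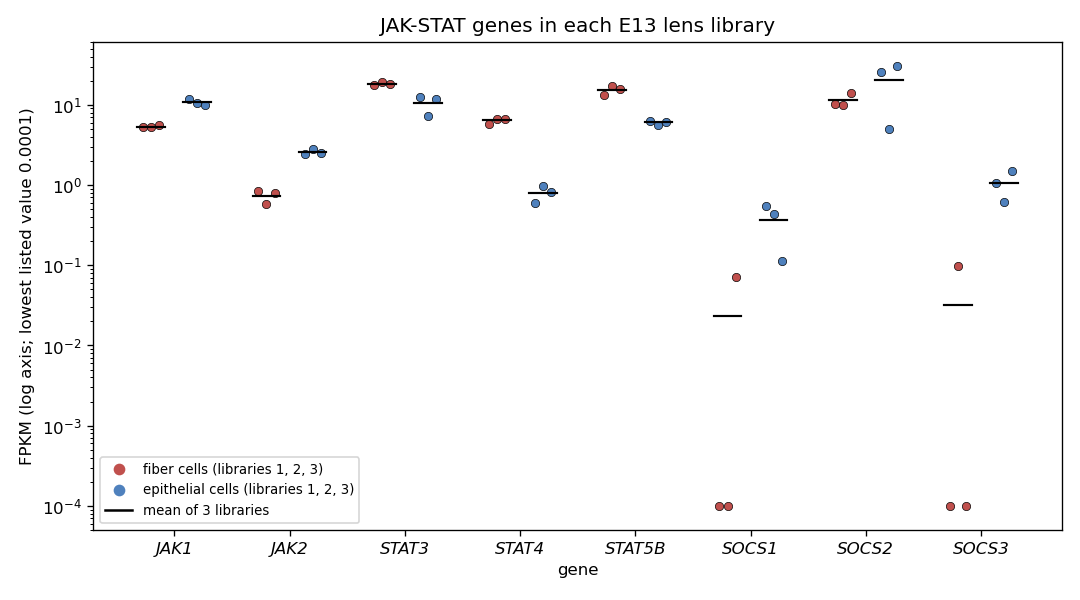
FPKM of the 8 JAK-STAT genes (log axis) in fiber libraries (red, left of each pair) and epithelial libraries (blue, right), with replicates 1 to 3 side by side and a bar at the mean of 3. The 3 STAT genes are higher in every fiber library, JAK1 and JAK2 are lower in every fiber library, and SOCS2 overlaps because epithelial library 2 lies at 4.998 FPKM.

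The SOCS genes were the least even between libraries. SOCS2, an inhibitor best known for limiting growth hormone signals, had 10.4, 9.99 and 14.02 FPKM in fiber libraries and 25.4, 4.998 and 30.8 FPKM in epithelial libraries. Epithelial library 2 lay below all fiber libraries while libraries 1 and 3 lay above them, so the groups overlapped. The means were 11.5 ± 2.23 and 20.4 ± 13.6 FPKM. The log2 fold change was −0.48 as deposited and 0.13 relative to the library median, so its direction depends on the scaling. Without epithelial library 2 it was −1.30 as deposited and −0.68 relative to the library median, and without epithelial library 3 it was 0.00 as deposited.

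SOCS3, which binds gp130 and blocks JAK1, JAK2 and TYK2, was listed at the lowest value of the table, 0.0001 FPKM, in fiber libraries 1 and 3 and at 0.0966 FPKM in fiber library 2, against 1.07, 0.615 and 1.49 FPKM in epithelial libraries. It passed the filter only through its epithelial level. Its log2 fold change, −3.13 with the pseudocount of 0.1 FPKM, was −0.97 with a pseudocount of 1 and −5.50 with 0.01, so only its direction is read. SOCS1, which inhibits JAKs directly, was listed at 0.0001, 0.0001 and 0.0705 FPKM in fiber libraries and at 0.547, 0.433 and 0.112 FPKM in epithelial libraries. It fell below the filter and no fold change is given. For both genes every fiber value lay below every epithelial value, as for 63.6% of the tested entries.

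Among the tested entries, 16.1% had all fiber libraries above all epithelial libraries and 63.6% had all of them below. Of the 7 selected genes that were tested, 3 (the STATs) were without overlap upward and 3 (JAK1, JAK2 and SOCS3) downward.

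The remaining members of these families were not part of the selection. As deposited, none of the 7 tested genes described here passed the limma thresholds upward, nor an unadjusted p of 0.05 upward, and 5 passed downward (median log2 fold change −0.99, against −0.62 over all tested entries, of which 13.1% passed upward and 57.7% downward). STAT2, a STAT of type I interferon signalling, had 1.11, 1.53 and 1.41 FPKM in fiber libraries and 2.35, 1.81 and 2.57 FPKM in epithelial libraries (log2 fold change −0.69, adjusted p = 0.00865), and with centred libraries it was not called. STAT6 was not analysed here.

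The inhibitors CISH, SOCS4, SOCS5 and SOCS6 were lower in fiber cells. CISH, which damps STAT5 signals, had 2.75, 2.96 and 2.92 FPKM in fiber libraries and 8.62, 5.68 and 7.18 FPKM in epithelial libraries, a log2 fold change of −1.27 ± 0.15 (SE, limma, adjusted p = 0.000133). The log2 fold changes were −0.99 for SOCS4, −1.48 for SOCS5 and −1.35 for SOCS6, with adjusted p-values up to 0.000277. CISH, SOCS5 and SOCS6 were also called lower with centred libraries, and SOCS4 was not, at −0.38. SOCS7 had 3.45, 3.41 and 3.63 FPKM in fiber libraries and 2.96, 3.35 and 4.25 FPKM in epithelial libraries, and its log2 fold change of 0.01 was not called (adjusted p = 0.974), while with centred libraries it was called higher at 0.61.

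The make-up of each family can be read as shares of its summed FPKM within a library (for the STATs, the sum of STAT2, STAT3, STAT4 and STAT5B), which do not change when a library is divided by 1 factor. STAT4 made up 14.99% to 16.1% of the STAT sum in fiber libraries and 2.72% to 6.15% in epithelial libraries. STAT5B, with GHDC included, made up 35.5% to 38.4% in fiber libraries and 28.6% to 36.1% in epithelial libraries, so its shares overlap. STAT3 was the most abundant of the 4 in every library, with shares of 43.2% to 46.3% in fiber libraries and 46.2% to 57.4% in epithelial libraries, which also overlap. In the kinase family, JAK2 held 6.06% to 9.53% in fiber libraries and 13.7% to 16.6% in epithelial libraries, and JAK1 was the largest share throughout, with 55.3% to 64.2% in fiber libraries and 62.2% to 66.5% in epithelial libraries.

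The family sums point in different directions. The 4 STAT entries summed to 37.8, 44.9 and 41.9 FPKM in fiber libraries and to 21.6, 15.7 and 21.4 FPKM in epithelial libraries. The 3 kinases summed to 8.79, 9.46 and 8.62 FPKM in fiber libraries and to 17.7, 16.8 and 15.8 FPKM in epithelial libraries. Of the gp130 receptor group, 5 chains were summed (IL6ST, IL6R, LIFR, CNTFR and IL11RA). They gave 14.6, 15.7 and 17.1 FPKM in fiber libraries and 38.8, 35.4 and 37.7 FPKM in epithelial libraries. The receptor gene OSMR, below the filter and at most 0.388 FPKM in any library, was left out of this sum. The STAT sum was thus higher in every fiber library and the kinase and receptor sums were lower, while STAT2 went against the first, TYK2 overlapped and IL6R went against the third. As given above, 63.6% of all tested entries were lower without overlap, and the median entry was at −0.62. The SOCS and CISH sum was 20.7, 20.2 and 24.8 FPKM in fiber libraries and 49.5, 25.4 and 53.6 FPKM in epithelial libraries, the middle epithelial value following the low SOCS2 of library 2. These sums hold the selected genes and are descriptions.

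**Figure D2:**
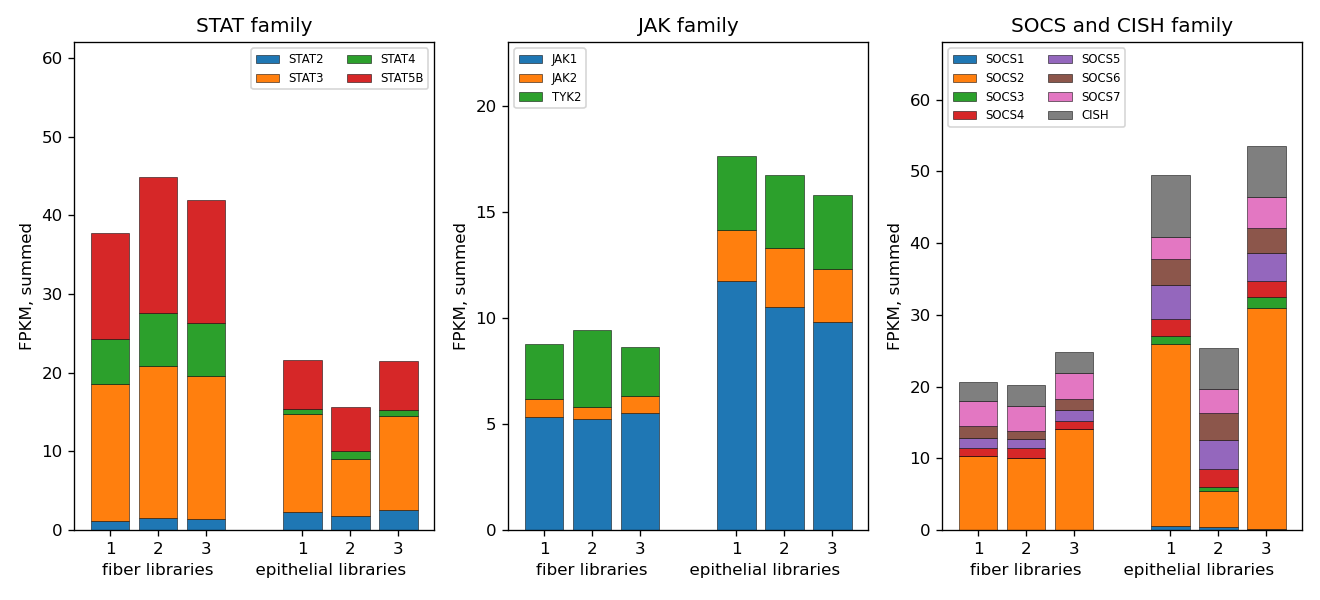
Summed FPKM of the STAT (STAT2, STAT3, STAT4 and STAT5B), JAK, and SOCS and CISH families in each library, fiber libraries at left and epithelial libraries at right of each panel, with 1 colour per gene (STAT5B includes GHDC, TYK2 includes CDC37). The STAT sum lies between 37.8 and 44.9 in fiber libraries and between 15.7 and 21.6 in epithelial libraries, and the JAK sum is lower in every fiber library. SOCS2 is the largest part of each bar in the third panel except in epithelial library 2, where CISH is larger.

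The genes next to the selected ones were compared, using gene order from the RefSeq gene table of the later GRCg7b assembly. STAT5B and STAT3 are neighbours on chromosome 27, between GHDC and PTRF. PTRF, which encodes the caveolar coat protein cavin 1, had 26.7, 29.1 and 27.1 FPKM in fiber libraries and 2.25, 2.14 and 2.28 FPKM in epithelial libraries (limma, log2 fold change 3.58, adjusted p = 3.91e-07), a larger difference than that of STAT3.

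Genes beside the kinases were not called as deposited. RAVER2, next to JAK1, had a log2 fold change of −0.02 (adjusted p = 0.909), and RCL1, next to JAK2, one of 0.18 (adjusted p = 0.129). With centred libraries both were called higher, at 0.59 and 0.79. RLN3, on the other side of JAK2, was at or below 0.0954 FPKM in every library. Beside the SOCS genes, RMI2 (−0.83) and CLEC16A (−0.15) flank SOCS1, MRPL42 (0.06) lies by SOCS2 and PGS1 (−0.74) by SOCS3. RMI2 and PGS1 were called lower as deposited and not with centred libraries, and MRPL42 and CLEC16A were called higher with centred libraries.

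The entries whose profile over the 6 libraries lay nearest to each gene were ranked by the root mean square difference of mean-centred log2 values. JAK1 had the closest companions, ATF6 (a stress sensor of the endoplasmic reticulum, 0.023) and ZFC3H1 (a nuclear RNA factor, 0.037). For JAK2 they were FAM184A (0.060) and DST (the cytolinker dystonin, 0.072), and for STAT5B MAPK11 (a p38 kinase, 0.053) and THAP4 (0.060). The values of ATF6 and of DST are each identical to those of another entry without a symbol, so they cannot be told apart from it. STAT4 was nearest to DOK5, a docking adaptor of receptor tyrosine kinases (0.10), and to TTYH2, a membrane channel protein (0.10). DOK5 had 6.69, 7.495 and 8.80 FPKM in fiber libraries, against 0.787, 1.34 and 1.10 FPKM in epithelial libraries. STAT3 was nearest to SIAH2, a ubiquitin ligase (0.097), and MED8, a Mediator subunit (0.10), which also had their lowest epithelial value in library 2. SOCS2 had no such close match (C1orf145 at 0.26 and AP1AR at 0.30). With 6 libraries in 2 groups, such nearness mostly restates the size of the group difference.

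Among the cytokine receptors, CNTFR and IL11RA were lower and IL2RG was higher in fiber cells. Of 29 receptor genes with an entry 15 were tested, and 2 of them were called higher and 10 lower as deposited (median log2 fold change −0.79), near the 13.1% and 57.7% of all tested entries. With centred libraries 5 were higher and 5 lower (median −0.18), against 30.2% and 29.3% over all. IL11RA, the interleukin 11 receptor, had 0.23, 0.0806 and 0.0119 FPKM in fiber libraries and 4.11, 2.75 and 3.81 FPKM in epithelial libraries (log2 fold change −4.26 ± 0.38 SE, limma, adjusted p = 2.99e-05). It passed the filter only through its epithelial level, and the fold change was −2.03 with a pseudocount of 1 and −5.49 with 0.01. CNTFR, the receptor subunit specific for CNTF, had 1.16, 0.636 and 0.825 FPKM in fiber libraries and 11.7, 9.12 and 10.5 FPKM in epithelial libraries (−3.46 ± 0.20, adjusted p = 5.16e-06). Both were lower in every fiber library, and both calls were also made with centred libraries.

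LIFR, the leukaemia inhibitory factor receptor, had 3.64, 2.49 and 3.75 FPKM in fiber libraries and 9.43, 9.06 and 8.63 FPKM in epithelial libraries (log2 fold change −1.45, adjusted p = 7.81e-05). The shared chain gp130, encoded by IL6ST, had 5.30, 4.95 and 6.20 FPKM in fiber libraries and 10.5, 10.7 and 10.9 FPKM in epithelial libraries (−0.95, adjusted p = 8.09e-05). IL6ST was not called with centred libraries, at −0.35. The interferon gamma receptor chain IFNGR2, with IL6ST the most abundant receptor of the list, had 9.96, 7.94 and 8.62 FPKM in fiber libraries and 13.9, 13.4 and 13.3 FPKM in epithelial libraries, and its log2 fold change of −0.61 was 0.00 with centred libraries.

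IL2RG and IL6R were the receptors with higher levels. IL2RG, the common gamma chain of interleukin receptors on lymphocytes, had 6.56, 7.25 and 5.49 FPKM in fiber libraries and 2.26, 2.98 and 2.30 FPKM in epithelial libraries (log2 fold change 1.33 ± 0.15 SE, limma, adjusted p = 0.000101). IL6R, the interleukin 6 receptor, had 4.24, 7.57 and 6.30 FPKM in fiber libraries and 3.03, 3.80 and 3.91 FPKM in epithelial libraries (0.71 ± 0.21, adjusted p = 0.0148). Within the gp130 group, IL6R thus differed from the epithelial level in the other direction than IL11RA, CNTFR, LIFR and IL6ST.

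Of 22 ligand genes with an entry only CNTF passed the filter. It had 6.52, 7.49 and 6.91 FPKM in fiber libraries and 4.49, 5.72 and 4.598 FPKM in epithelial libraries, and was called higher in fiber cells (log2 fold change 0.50 ± 0.12 SE, limma, adjusted p = 0.006). CNTF was thus higher where its receptor subunit CNTFR was lower. The next most abundant ligand, the CNTF relative CLCF1, did not exceed 0.856 FPKM in any library.

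Among the other regulators, 17 of 19 were tested, and 2 were called higher and 10 lower as deposited, close to the 13.1% and 57.7% of all tested entries. With centred libraries 7 were higher and 6 lower (30.2% and 29.3% over all). PIAS2, a SUMO ligase that restrains STATs, had 1.78, 1.42 and 1.82 FPKM in fiber libraries and 4.64, 5.25 and 5.42 FPKM in epithelial libraries (log2 fold change −1.56, adjusted p = 2.58e-05). The JAK phosphatase PTPN1 (−1.50) and the STAT-binding protein NMI (−1.47) were lower to a like degree, and all 3 were also called with centred libraries. PIAS4, of the PIAS2 family, was higher in fiber cells, with 2.74, 4.18 and 4.26 FPKM against 2.22, 1.74 and 2.21 FPKM in epithelial libraries (log2 fold change 0.81, adjusted p = 0.00525), as was STAM2, an endosomal sorting adaptor that binds JAKs (0.61, adjusted p = 0.00196). The most abundant of the list were RNF7, a RING subunit of the ubiquitin ligases that SOCS proteins recruit, with a log2 fold change of 0.03 (adjusted p = 0.798), and NDUFA13, a mitochondrial complex I subunit that also binds STAT3, with −0.78 (adjusted p = 0.000782). Both calls change with centred libraries, where RNF7 was called higher at 0.63 (adjusted p = 0.00025) and NDUFA13 was not called at −0.17 (adjusted p = 0.27).

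Among genes reported elsewhere as STAT targets, BCL6 and HIF1A were lower and PIM3 and IFIH1 were higher in fiber cells. Of 24 with an entry 16 were tested, and 2 were called higher and 13 lower as deposited (13.1% and 57.7% over all tested entries). With centred libraries 3 were higher and 7 lower (30.2% and 29.3% over all). Over all 56 tested genes of the 5 lists, 7 were called higher and 38 lower as deposited, with a median log2 fold change of −0.89, against −0.62 over all tested entries, and 17 were called higher and 21 lower with centred libraries.

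BCL6, a transcriptional repressor, had 0.558, 0.406 and 0.377 FPKM in fiber libraries and 4.74, 3.98 and 4.37 FPKM in epithelial libraries (log2 fold change −3.04 ± 0.17 SE, limma, adjusted p = 4.55e-06). HIF1A, the oxygen-regulated transcription factor and the most abundant of the list, had 27.1, 19.1 and 26.0 FPKM in fiber libraries and 110.3, 90.4 and 95.3 FPKM in epithelial libraries (−2.04 ± 0.14, adjusted p = 1.07e-05). PIM3, a survival kinase and the second most abundant, was higher in fiber cells, with 27.3, 22.6 and 30.6 FPKM against 9.27, 14.5 and 11.9 FPKM in epithelial libraries (1.18 ± 0.17, adjusted p = 0.000389). The interferon-induced gene IFIT5 was lower (−1.91, adjusted p = 0.00203), with values identical to those of 4 entries named IFN-A. All 4 genes were called in the same direction with centred libraries. BCL6 passed the filter only through its epithelial level, and its log2 fold change was −1.89 with a pseudocount of 1.

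**Figure D3:**
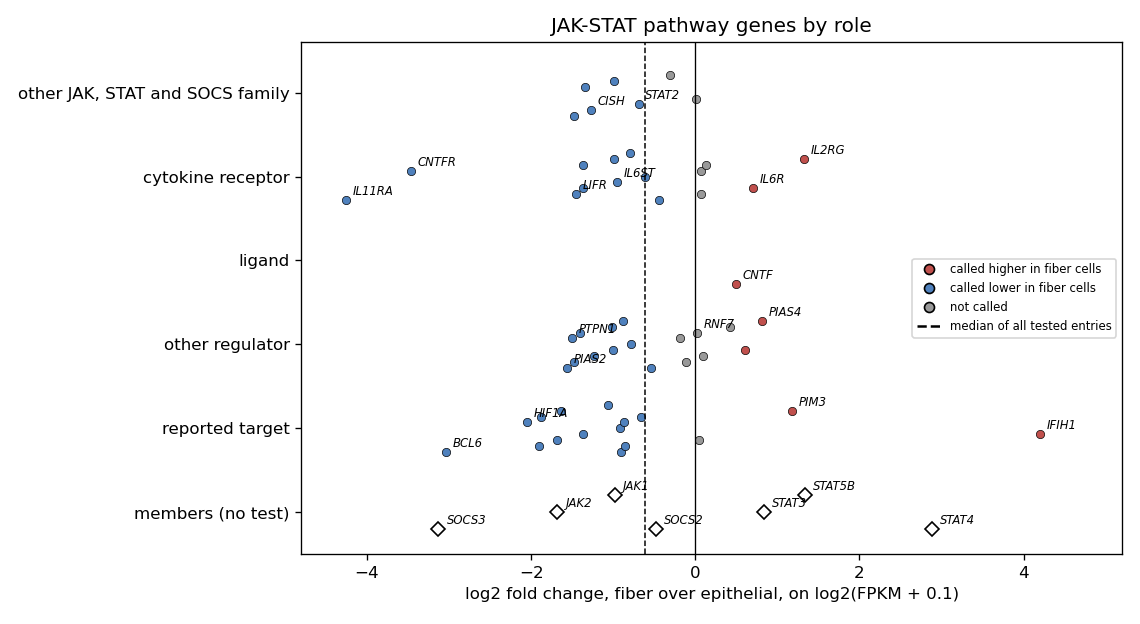
Log2 fold change (fiber over epithelial, on log2(FPKM + 0.1)) of the tested pathway genes by role, coloured by call, with the 7 tested members as open diamonds without a test and the median of all tested entries (−0.62) dashed. Receptors, regulators and reported targets lie mostly left of 0, while STAT4, STAT5B, STAT3, IL2RG, PIM3 and IFIH1 lie at its right.

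Markers of other cells were read beside these results. All 9 lens fiber markers were called higher in fiber cells, and all 4 lens epithelium markers with an entry were called lower as deposited (3 with centred libraries, without CDH1). The fiber list summed to 32290 to 35610 FPKM in fiber libraries and 5991 to 10290 FPKM in epithelial libraries, and the epithelium list to 44.4 to 67.2 FPKM in fiber libraries and 268.5 to 312 FPKM in epithelial libraries. Each sum is mostly 1 entry. ASL1, with values identical to those of ASL2 and GUSB, had 20920 to 23240 FPKM in fiber libraries and 4513 to 7562 FPKM in epithelial libraries. GJA1 had 27.1 to 47.7 FPKM in fiber libraries and 214 to 245.9 FPKM in epithelial libraries. Fiber markers were also measured in the epithelial libraries. The lens filament gene BFSP1 stood at 10.6%, 20.7% and 16.96% of its fiber mean in epithelial libraries 1 to 3, and STAT4 at 9.19%, 15.1% and 12.9%. STAT3 stood at 67.7%, 39.5% and 64.9%, and STAT5B at 40.7%, 36.8% and 39.8%, so these 2 lay above BFSP1 in every epithelial library. The lens water channel MIP stood at 9.82%, 14.9% and 15.9%. LGSN (lengsin) lay lower, at 0.344%, 0.343% and 0.664%, as did HSF4 (a heat shock factor of the lens) at 1.86%, 2.91% and 3.80%. For the listed fiber markers GJA3, ASL1, CRYBB1 and CRYGN, the epithelial mean was 0.684, 0.283, 0.216 and 0.16 of the fiber mean. That ratio was 0.574 for STAT3 and 0.391 for STAT5B, so GJA3 lay above both. STAT4 was highest in epithelial library 2, as were the fiber markers BFSP1, BFSP2, CRYGN, CRYBB1, ASL1 and GJA3. The fiber markers MIP, LGSN and HSF4 were highest in library 3. The part of fiber RNA in the epithelial STAT4 level was not tested.

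**Figure D4:**
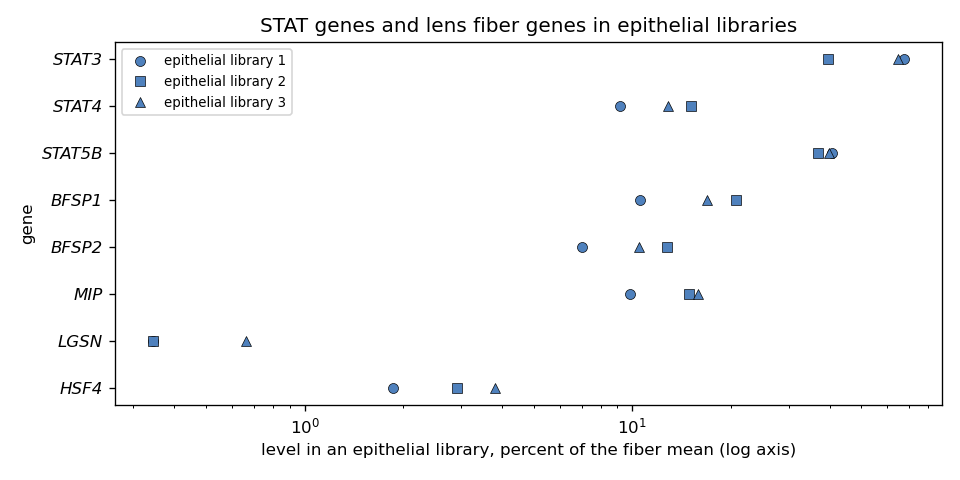
Level of STAT3, STAT4, STAT5B and 5 lens fiber genes in each epithelial library, as a percent of the gene's mean in the 3 fiber libraries (log axis, 1 symbol per epithelial library). STAT4 lies between 9.19% and 15.1%, near BFSP1 and BFSP2, whereas STAT3 and STAT5B lie above 36% and LGSN below 1%. The listed fiber markers GJA3, ASL1, CRYBB1 and CRYGN are not drawn.

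STAT4 and IL2RG are known from lymphocytes, so leukocyte markers were read as well. CD3E, a T cell receptor chain, had 2.08, 2.90 and 2.67 FPKM in fiber libraries and 0.0265, 0.119 and 0.0721 FPKM in epithelial libraries, while CD74 was lower in fiber cells (2.43, 2.12 and 1.78 FPKM, against 5.30, 4.54 and 4.85 FPKM in epithelial libraries). The other 14 entries of the list lay below 0.5 FPKM in every library. Among them PTPRC, the defining leukocyte antigen, reached at most 0.136 FPKM, CD4 0.0285 FPKM, and CD8A and IKZF1 stood at 0.0001 FPKM throughout. The summed level of the list was 4.68 to 5.29 FPKM in fiber libraries and 5.10 to 6.01 FPKM in epithelial libraries.

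Erythrocyte markers were read because JAK2 and STAT5 serve the erythropoietin receptor. The globins HBZ (5.29 to 7.50 FPKM in fiber libraries, at most 0.0774 FPKM in epithelial libraries) and HBA1 (2.22 to 6.59 FPKM, against at most 0.159 FPKM) were higher in fiber cells. HBAD, below the filter, had 0.528 to 0.842 FPKM in fiber libraries, against at most 0.0948 FPKM. The globins HBBA and HBE1, with identical values, did not exceed 0.101 FPKM in any library, and HBBR and HBE stood at 0.0001 FPKM throughout. EPB42, a red cell membrane protein, was lower, with 0.777, 0.587 and 0.344 FPKM in fiber libraries and 1.94, 1.78 and 1.60 FPKM in epithelial libraries (limma, log2 fold change −1.53, adjusted p = 0.000813). SLC4A1, the red cell anion exchanger, was at most 0.0365 FPKM and TAL1 at most 0.0249 FPKM in any library. The list summed to 8.73 to 14.8 FPKM in fiber libraries and 1.68 to 2.13 FPKM in epithelial libraries, and its part in the STAT5B and JAK2 levels was not tested. Of the vessel and mesenchyme list, 1 of 6 tested genes was called higher and 4 lower as deposited (13.1% and 57.7% over all tested entries). With centred libraries 1 was called higher and 3 lower (30.2% and 29.3% over all). DCN was called higher in both cases, and PECAM1, KDR and PDGFRA were called lower in both. The iris pigment and retina list summed to 0.448 to 0.733 FPKM in fiber libraries and 1.16 to 3.10 FPKM in epithelial libraries. Its 1 tested gene, PMEL, was not called. The part of either list in the JAK-STAT levels was not tested. In bulk samples, fewer cells of a type and less RNA per cell cannot be told apart.

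Library 2 was the lowest of the epithelial libraries for STAT3, STAT5B, SOCS2, SOCS3, STAT2, TYK2 and CISH, 7 of the 14 tested family genes (50%). Over all tested entries it was the lowest for 45.1%, a share near that of the family.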

How the data were processed

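RNA-seq of pooled E13 chick lens tissue was analysed for 3 fiber and 3 epithelial libraries. The authors trimmed reads with Cutadapt, mapped them to galGal6 (Ensembl 96) with Bowtie2 and HISAT2, assembled transcripts with StringTie and gffcompare and estimated expression with edgeR, and they deposited FPKM per library with 0.0001 in place of 0. Their deposited fold change ratio, its log2 value and the p-values and q-values of their edgeR test hold their own comparison and were not used, nor were their averages (6 columns in all). The unit keeps no depth, so precision rests on replicates alone. From the FPKM, log2(FPKM + 0.1) was fitted with limma 3.58.1 in R 4.3.3 (empirical Bayes with a mean-variance trend), for the 10818 of 16561 entries that averaged 0.5 FPKM or more. Benjamini-Hochberg adjustment ran over all tested entries. The thresholds of a call were 0.05 for the adjusted p and 0.4 for the size of the log2 fold change, fiber over epithelial. The fit was tested on simulated data.

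The members, lists and tests were chosen with earlier results of these data known. Named were the 8 selected genes, their families, the 3 most changed called genes per direction and the 2 most abundant genes of each list, the 2 nearest profiles, and adjacent genes by RefSeq order (GRCg7b, names and order only). A few items that these rules cover are not reported here. Site sequences and galGal6 positions came from the study's supplementary list, of which the part for epithelial cell genes was held only in part. Alternatives were pseudocounts of 1 and 0.01, no filter on low values, a 1 FPKM filter, median centring, division by the 75th percentile, quantile normalization, collapsed identical entries, limma's treat, a replicate block and leaving out each library. Median centring without epithelial library 2 was added after the data were seen.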

Additional observations from a re-analysis of the deposited data

How the results depend on the processing

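Scaling moved the counts of calls, and the pseudocount moved the fold changes of genes near 0 in a cell type. With median centring 3263 entries passed the thresholds upward and 3167 downward, with quantile normalization 2884 and 3228, and division by the 75th percentile gave 2131 higher, against 1415 higher and 6240 lower as deposited. Among the other pathway genes, 17 were called higher and 21 lower with median centring, 14 higher and 25 lower with quantile normalization, and 3 higher with treat, against 7 and 38 as deposited. Median centring without epithelial library 2, chosen after seeing the data, gave 3188 and 3096 entries and 15 and 21 other pathway genes. STAT2 turned to 0.16 with quantile normalization (not called) and IFNGR2 to 0.0036 with median centring without epithelial library 2. The calls of IL2RG, IL11RA, CNTFR, LIFR, CISH, SOCS5, SOCS6, BCL6, HIF1A, PIM3 and IFIH1 held in each alternative that was run, while treat made no call for IL6R, CNTF, PIAS4, STAM2, STAT2 and IFNGR2. IL11RA and BCL6 passed the filter only through their epithelial level and IFIH1 only through its fiber level. The calls of these 3 genes are therefore read as descriptions. Without a filter on low values IL6R was not called (adjusted p = 0.0671). With a pseudocount of 1 the log2 fold change was 2.05 for STAT4, −1.04 for JAK2, −2.03 for IL11RA, 2.40 for IFIH1 and −1.89 for BCL6, and with quantile normalization it was 3.68 for STAT4 and −0.77 for JAK2. Leaving out any library moved STAT4 between 2.71 and 3.02, STAT5B between 1.25 and 1.43, JAK1 between −1.04 and −0.91 and JAK2 between −1.77 and −1.53. Libraries with the same replicate number deviated together weakly (r = 0.086, 0.066 and 0.067), and every other pair had a negative r, down to −0.050. Each library thus correlated best with its own number. The deviations are from the mean of each cell type and cancel within it, so positive values for the same number force negative ones elsewhere. The negative values therefore add nothing on pairing. The study dissected the 25 lenses of a replicate into both cell types, so a number may pair libraries, but the labels do not say so. The main fit leaves the number out. The replicate block gave 1436 entries called higher and 6268 lower, 7 and 36 of the other pathway genes, and 3 of the selected genes in each direction.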

Other observations

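Interferon-induced genes were not all on the same side of the contrast. IFIH1, which encodes the double-stranded RNA sensor MDA5, had 4.74, 5.18 and 6.12 FPKM in fiber libraries and 0.169, 0.192 and 0.227 FPKM in epithelial libraries, the largest change among the reported targets (limma, log2 fold change 4.20 ± 0.17 SE, adjusted p = 1.37e-06, and 4.81 with centred libraries). It passed the filter only through its fiber level, and with a pseudocount of 1 the log2 fold change was 2.40. EIF2AK2, the RNA-dependent kinase PKR, was lower in fiber cells (1.02, 0.977 and 1.01 FPKM, against 1.79, 1.90 and 2.09 FPKM in epithelial libraries, −0.87, adjusted p = 0.000605), and so was ADAR, an RNA-editing deaminase (−0.92, adjusted p = 0.000173). Neither was called with centred libraries. Of the same list, PARP9 was called lower as deposited (−1.06, adjusted p = 0.00114) and with centred libraries (−0.45). RSAD2, with values identical to those of RNF144A, was called lower as deposited only (−0.85). MX1 fell below the filter, with 0.198, 0.296 and 0.21 FPKM in fiber libraries and 0.0001 FPKM in every epithelial library. OASL did not exceed 0.274 FPKM in any library. EIF2AK2, ADAR, PARP9, RSAD2, MX1 and OASL were named after their values were seen.

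Further genes of the same list differed as follows. CCND1 (cyclin D1) had 8.32, 6.65 and 8.60 FPKM in fiber libraries and 33.3, 26.0 and 28.2 FPKM in epithelial libraries (−1.88, adjusted p = 1e-05), and BCL2, an inhibitor of apoptosis, had 3.10, 2.25 and 3.37 FPKM, against 8.21, 7.13 and 7.28 FPKM in epithelial libraries (−1.36, adjusted p = 0.000106). Both were also called lower with centred libraries. The related survival genes BCL2L1 (−0.90) and MCL1 (−0.66) were called lower as deposited only. PIM1, the relative of PIM3, had a log2 fold change of 0.04 (adjusted p = 0.844). These genes were likewise named after their values were seen.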
